A study of Homo sapiens with 16 samples.

Results

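The S100 proteins are small calcium-binding proteins with a pair of EF-hand motifs each, and annexin A2 (ANXA2) is the partner of one of them. The 8 genes described here are S100A1, S100A4, S100A6, S100A10, S100A11, S100A13, S100A16 and ANXA2, chosen by name out of 43388 genes in the table of RNA levels. All 8 were in the table and had a mean of at least 1 TPM (transcripts per 1000000, a level corrected for gene length and library size) over the 16 libraries, so all were tested. The cells were cardiomyocytes made from the wild type line WTC11, human cells reprogrammed to induced pluripotency, by the GiWi protocol, which first activates and then inhibits Wnt signalling. All libraries came from wells of a single differentiation of 1 line, so the spread between them is that between wells. There were 4 groups of 4 libraries. Day 16 RPMI/B27 was the baseline, collected on day 16 in standard RPMI medium with the B27 supplement. The other 3 were kept for 2 more weeks, to day 30, each in its own medium. These were RPMI/B27 (the standard medium, of higher glucose), RPMI_glcM/B27 (the same medium with its glucose lowered to the 5 mM of HPLM) and HPLM/B27. HPLM, human plasma-like medium, holds polar metabolites and ions at levels like those of human plasma. The series' design text counts 3 wells for each medium, whereas the sample labels number 4.

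When calcium enters a cell, an S100 protein opens a hydrophobic face and binds its targets, which makes the family a link between calcium and the cytoskeleton, membranes and pumps. In heart muscle the member best known is S100A1, which binds the calcium release channel RYR2 and the calcium pump SERCA2a (ATP2A2). S100A10 does not bind calcium and instead sits in a complex with ANXA2, a protein that attaches to membranes when calcium rises. According to the study, standard RPMI holds less calcium than plasma or HPLM, so the media differ in calcium as well as in other solutes. HPLM/B27 and RPMI_glcM/B27 are matched in glucose, and between them calcium and the remaining solutes cannot be told apart. HPLM/B27 and RPMI/B27 differ in glucose too.

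The 7 S100 genes lie within 1651447 bases of chromosome 1 (RefSeq, GRCh38.p14), and ANXA2 on chromosome 15 at chr15:60347151-60397986. S100A10 (chr1:151982915-151993859) and S100A11 (chr1:152032506-152037004) are 38646 bases apart and are separated by 1497594 bases from the others. S100A6 (chr1:153534599-153535991), S100A4 (chr1:153543621-153545806), S100A16 (chr1:153606883-153613137), S100A13 (chr1:153618799-153634361) and S100A1 (chr1:153628434-153632039) follow in that order. All 8 are on the minus strand except S100A1, which lies inside the span of S100A13 on the opposite strand and shares 235 of its 3030 annotated exon bases (GENCODE 44) with exons of S100A13. Whether the counting used strand is not stated, so reads on those bases may have gone to either gene.

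The promoter windows of the 5 members whose levels carry most of the results below are printed here, from 250 bases before to 50 bases after the annotated start (RefSeq, GRCh38.p14), 5′ to 3′ on the minus strand. S100A10 and ANXA2 are shown as the pair that forms one complex, S100A6 and S100A13 because their profiles over the libraries were alike, and S100A11 because its level varied most over the 16 libraries. Capitals mark matches on either strand to 6 motifs: the TATA box TATAAA (where transcription of some genes is positioned), the GC box GGGCGG (a site of SP1 and related factors), the CCAAT box CCAAT (a site of NF-Y), the AP-1 site TGANTCA (bound by FOS and JUN proteins), the TEAD site CATTCC (the site of the factors that work with YAP) and the E-box CACGTG (bound by MYC, USF and similar proteins). The windows are S100A10 at chr1:151993810-151994109, S100A11 at chr1:152036955-152037254, S100A6 at chr1:153535942-153536241, S100A13 at chr1:153634312-153634611 (the outermost of 3 listed starts) and ANXA2 at chr15:60397937-60398236.
S100A10: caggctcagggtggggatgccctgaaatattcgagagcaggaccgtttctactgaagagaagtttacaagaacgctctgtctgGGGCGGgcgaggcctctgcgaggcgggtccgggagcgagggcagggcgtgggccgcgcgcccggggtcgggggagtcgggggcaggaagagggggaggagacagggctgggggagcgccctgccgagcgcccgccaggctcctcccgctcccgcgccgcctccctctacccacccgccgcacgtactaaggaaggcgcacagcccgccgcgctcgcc
ANXA2: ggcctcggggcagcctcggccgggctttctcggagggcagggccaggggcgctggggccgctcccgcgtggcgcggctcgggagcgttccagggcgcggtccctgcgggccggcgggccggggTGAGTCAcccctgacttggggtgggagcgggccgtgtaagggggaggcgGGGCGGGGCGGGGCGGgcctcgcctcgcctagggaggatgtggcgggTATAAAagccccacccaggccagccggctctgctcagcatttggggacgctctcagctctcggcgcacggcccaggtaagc
S100A6: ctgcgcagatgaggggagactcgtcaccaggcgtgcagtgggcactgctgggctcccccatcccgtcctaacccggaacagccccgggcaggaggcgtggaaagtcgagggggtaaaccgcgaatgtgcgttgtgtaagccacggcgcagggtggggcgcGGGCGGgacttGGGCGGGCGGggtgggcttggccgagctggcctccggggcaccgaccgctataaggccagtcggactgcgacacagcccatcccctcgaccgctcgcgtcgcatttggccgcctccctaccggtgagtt
S100A13: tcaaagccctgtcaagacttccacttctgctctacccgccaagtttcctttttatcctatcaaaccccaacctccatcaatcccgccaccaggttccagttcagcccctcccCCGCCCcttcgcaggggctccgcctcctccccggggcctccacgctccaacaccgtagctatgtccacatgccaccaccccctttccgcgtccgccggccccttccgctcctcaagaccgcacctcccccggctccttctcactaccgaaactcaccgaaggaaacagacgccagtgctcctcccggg
S100A11: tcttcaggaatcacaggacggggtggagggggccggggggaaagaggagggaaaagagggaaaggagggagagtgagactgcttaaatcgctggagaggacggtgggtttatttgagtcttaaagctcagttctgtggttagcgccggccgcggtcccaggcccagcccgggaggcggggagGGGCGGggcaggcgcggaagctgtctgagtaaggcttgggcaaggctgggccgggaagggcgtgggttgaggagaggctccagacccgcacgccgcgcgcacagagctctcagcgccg

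All 5 windows held a GC box, which 6 of the 11 windows of the 8 genes had and 45% of the 35116 windows of all genes. It stood at -167 in S100A10, at -68 in S100A11, at -138 (as its reverse complement) in S100A13, at -90, -79 and -75 in S100A6 and at -78, -73 and -68 in ANXA2, counted from the start at +1 to the first base of the match, with overlapping matches in S100A6 and ANXA2. Of these 5 windows only that of ANXA2 had a TATA box, at -31, and an AP-1 site, at -127, motifs found in 11.5% and 7.71% of all windows. GC content was 71.7% in S100A10, 65.3% in S100A11, 69.3% in S100A6, 62.7% in S100A13 and 76% in ANXA2, against a median of 58.7% over all windows. Among the windows not printed, S100A4 had a TATA box at -31, another start of S100A13 (chr1:153627456-153627755) had one at -29 with a CCAAT box at -116, and S100A1 had no match to any of the 6. A match is a stretch of letters and was not tested as a binding site.

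S100A10 was the most abundant of the 8, with a mean of 105 TPM over the 16 libraries, followed by ANXA2 (65.6), S100A6 (45.5), S100A13 (36.1), S100A11 (22.3), S100A4 (19.4), S100A16 (10.9) and S100A1 (2.31). The library ranges of neighbours in this order overlapped down to S100A16 (7.45 to 15.8 TPM), and all libraries of S100A1 (0.960 to 4.97 TPM) lay below those of S100A16. The values of S100A1 rested on 2 to 16 reads per library, whereas ANXA2 had 1040 to 2261 reads and S100A10 140 to 550. The depth on genes, from reads recovered out of the TPM values, was 7744768 to 16183655 reads per library. Of the TPM of a library, which is not its share of reads, the large mitochondrial ribosomal RNA RNR2 made up 41.0% to 48.3%. The small one, RNR1, was at 49.5 to 29276 TPM, with its highest levels, 14387 and 29276, in libraries 3 and 4 of Day 30 RPMI/B27, and these 2 libraries were apart from the other 2 of their group in several values below. The defining markers of the labelled cell type were present: all 10 cardiomyocyte genes listed (TNNT2, MYH6, RYR2 and others) were detected and summed to 12413 to 16718 TPM per library.

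Genes were compared by limma on log2(TPM + 1) across all 16122 genes of at least 1 TPM, with Benjamini-Hochberg adjustment and a threshold of 0.05, and a log2 fold change of low genes is understated on this scale. From Day 16 to Day 30 in RPMI/B27, 2 of the 8 rose and 1 fell, where 2.08% of all genes tested were higher and 17.8% lower. In RPMI_glcM/B27, 0 of the 8 rose and 4 fell, where 3.34% of all genes were higher and 17.8% lower. In HPLM/B27, 1 of the 8 rose and 2 fell, where 3% of all genes were higher and 22.4% lower. In that order, the median log2 fold change of the 8 was -0.0026, -0.35 and -0.02, and that of all genes was -0.28, -0.22 and -0.29, so the background against Day 16 was itself shifted downwards on the TPM scale.

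Between media at Day 30, 3 of the 8 were lower and 0 higher in RPMI_glcM/B27 than in RPMI/B27, where 0.837% of all genes were lower and 1.36% higher. The median log2 fold change of the 8 was -0.57, beside 0.05 over all genes. Between HPLM/B27 and RPMI_glcM/B27, limma called 0 of the 8, with 0.0496% of all genes higher and 0.0186% lower. There the median of the 8 was 0.40 beside -0.06 over all genes, 4 of the 8 (S100A4, S100A6, S100A10 and S100A13) had an unadjusted p under 0.05, as did 6.53% of all genes, and limma-voom on recovered reads called 2, beside 0.895% of all genes. Between HPLM/B27 and RPMI/B27, limma also called 0, with 1.51% of all genes higher and 0.893% lower. The member with an unadjusted p under 0.05 was S100A11, where 15.2% of all genes had one. limma-voom called 1, beside 10.1% of all genes, and the median was -0.08 beside -0.02 over all genes. The comparisons share groups, so their values are not independent of each other.

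**Figure D1:**
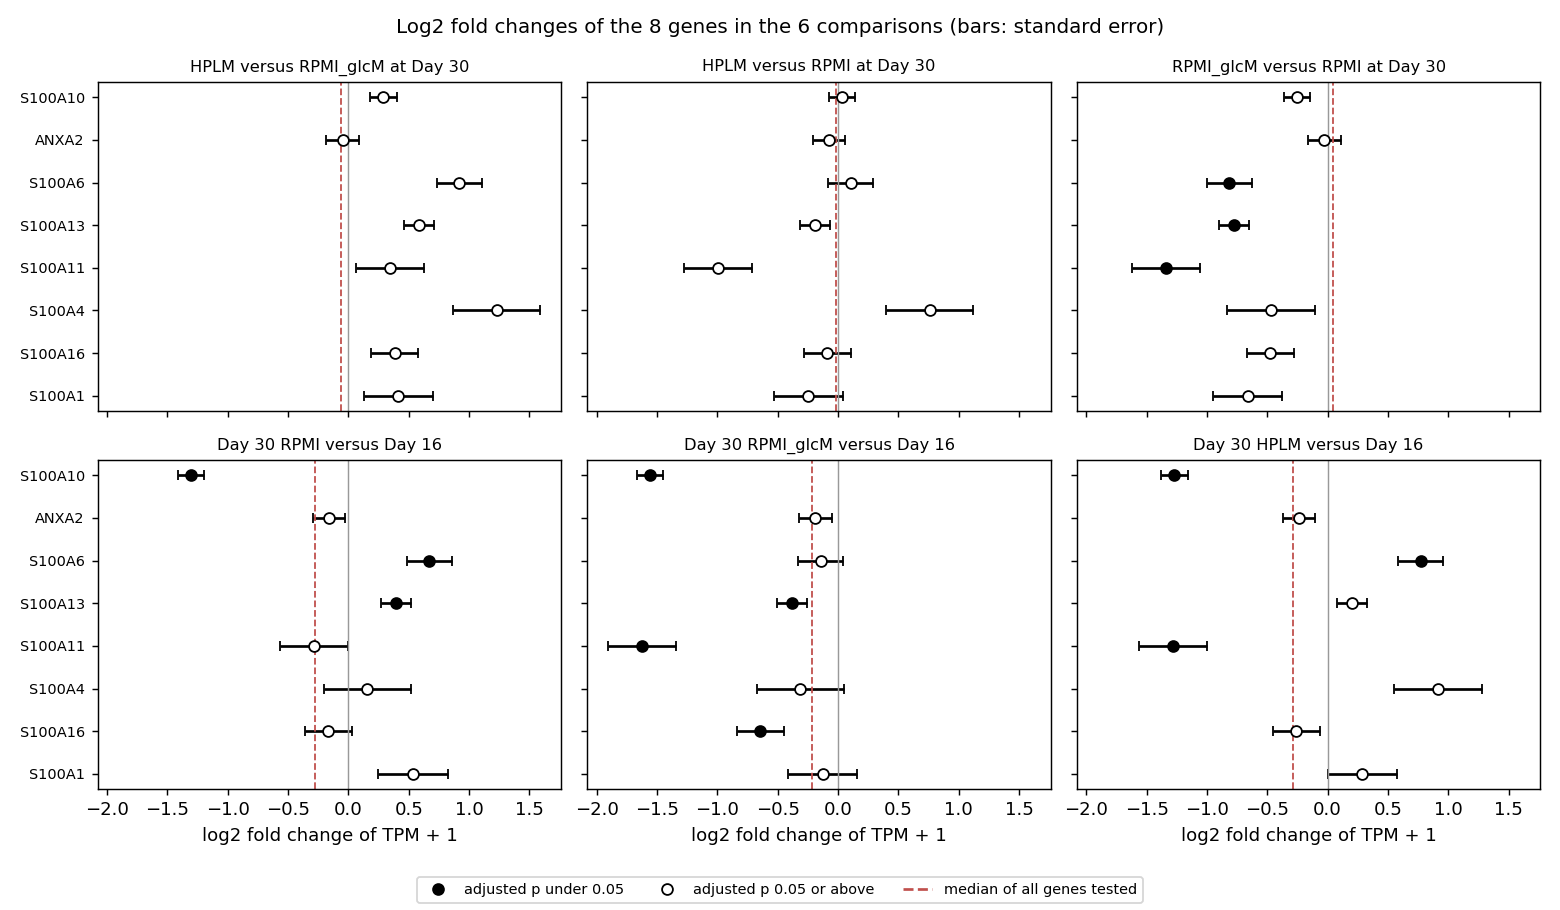
Log2 fold change of TPM + 1 (x axis) for each of the 8 genes (rows) in the 6 comparisons (panels), from limma with 4 libraries per group. Points are estimates, bars are 1 standard error, filled points have an adjusted p under 0.05 and the dashed line is the median of all genes tested. S100A10 sits at -1.27 to -1.56 in the 3 comparisons with Day 16. In the comparison of RPMI_glcM/B27 with RPMI/B27 the filled points (S100A6, S100A11 and S100A13) are below 0, where 0.837% of all genes were called lower. ANXA2 is there at -0.03 (SE 0.14).

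S100A10, also called p11, carries channels such as KCNK3 to the cell surface and joins ANXA2 to the scaffold protein AHNAK. It was the member with the largest fall from Day 16 in RPMI/B27, and it fell in all 3 media. At Day 16 it was at 209, 205, 185 and 184 TPM in libraries 1 to 4. At Day 30 it was at 70.2, 79.0, 85.6 and 80.3 TPM in RPMI/B27, at 69.1, 65.4, 65.6 and 62.7 in RPMI_glcM/B27 and at 91.8, 66.0, 78.6 and 88.3 in HPLM/B27. Every Day 16 library was thus above every Day 30 library, while the 3 Day 30 media lay close together, with means of 78.8 ± 6.38, 65.7 ± 2.64 and 81.2 ± 11.6 TPM (SD, n = 4) against 196 ± 12.6. The level fell to 0.405 of Day 16 in RPMI/B27 (log2 fold change -1.30, SE 0.11, limma adjusted p = 2.08e-06), to 0.339 in RPMI_glcM/B27 (-1.56, SE 0.11, adjusted p = 1.86e-07) and to 0.415 in HPLM/B27 (-1.27, SE 0.11, adjusted p = 1.5e-06). After taking off the median of all genes these were -1.03, -1.34 and -0.98. Between media the log2 differences were -0.26 (SE 0.11, adjusted p = 0.274) for RPMI_glcM/B27 against RPMI/B27, 0.29 (SE 0.11, adjusted p = 0.574) for HPLM/B27 against RPMI_glcM/B27 and 0.04 (SE 0.11, adjusted p = 0.929) for HPLM/B27 against RPMI/B27. The fall against Day 16 passed in all 10 alternative analyses and with any single library left out.

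ANXA2, the partner of S100A10, did not pass the test in any of the 6 comparisons. It was at 78.4, 70.2, 77.0 and 63.9 TPM at Day 16, and at Day 30 at 76.5, 79.3, 55.8 and 50.7 in RPMI/B27, at 72.2, 60.8, 62.1 and 58.3 in RPMI_glcM/B27 and at 63.1, 61.3, 58.0 and 62.0 in HPLM/B27. The group means, 72.4 ± 6.68, 65.6 ± 14.4, 63.4 ± 6.12 and 61.1 ± 2.20 TPM, spanned less than the libraries of RPMI/B27 did among themselves. The largest difference was between HPLM/B27 and Day 16 (log2 fold change -0.24, SE 0.14, limma adjusted p = 0.206). The libraries of these 2 groups did not overlap, and the difference lay 0.05 from the median of all genes. It passed in 2 of the 10 alternatives (lowest limma adjusted p = 0.033). Without both RPMI/B27 libraries of highest RNR1, ANXA2 was lower in HPLM/B27 than in RPMI/B27 (-0.35, limma adjusted p = 0.0283). In that fit the median of all genes was itself -0.275, and 3367 of 16122 genes were called, 247 of them higher. The ratio of S100A10 to ANXA2 in TPM was 2.72 ± 0.236 at Day 16, and at Day 30 it stood at 1.26 ± 0.349 with RPMI/B27, at 1.04 ± 0.0565 with RPMI_glcM/B27 and at 1.33 ± 0.173 with HPLM/B27. Processed ANXA2 copies elsewhere in the genome (ANXA2P1, ANXA2P2 and ANXA2P3) are nearly identical to it and summed to 5.10% to 13.9% of its level, so its reads could be split among them.

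Of the other partners of this complex, AHNAK was lower in HPLM/B27 than in RPMI/B27, at 48.8 ± 3.17 against 80.3 ± 13.9 TPM (log2 fold change -0.69, SE 0.14, limma adjusted p = 0.0132). AHNAK was also lower than at Day 16 (81.5 TPM) in RPMI_glcM/B27, by -0.54 (SE 0.14, adjusted p = 0.0115), and in HPLM/B27, by -0.72 (SE 0.14, adjusted p = 0.00164). KCNK3, a potassium channel whose route to the membrane uses S100A10, was low, at group means of 0.537 TPM at Day 16, 0.569 with RPMI/B27, 0.863 with RPMI_glcM/B27 and 2.07 with HPLM/B27. Its mean reached 1 TPM only through the HPLM/B27 libraries, so no test of it is given. PLAT, the plasminogen activator that the S100A10 and ANXA2 complex binds at the cell surface, passed in no comparison and was at 0.88 to 1.74 TPM in group means.

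**Figure D2:**
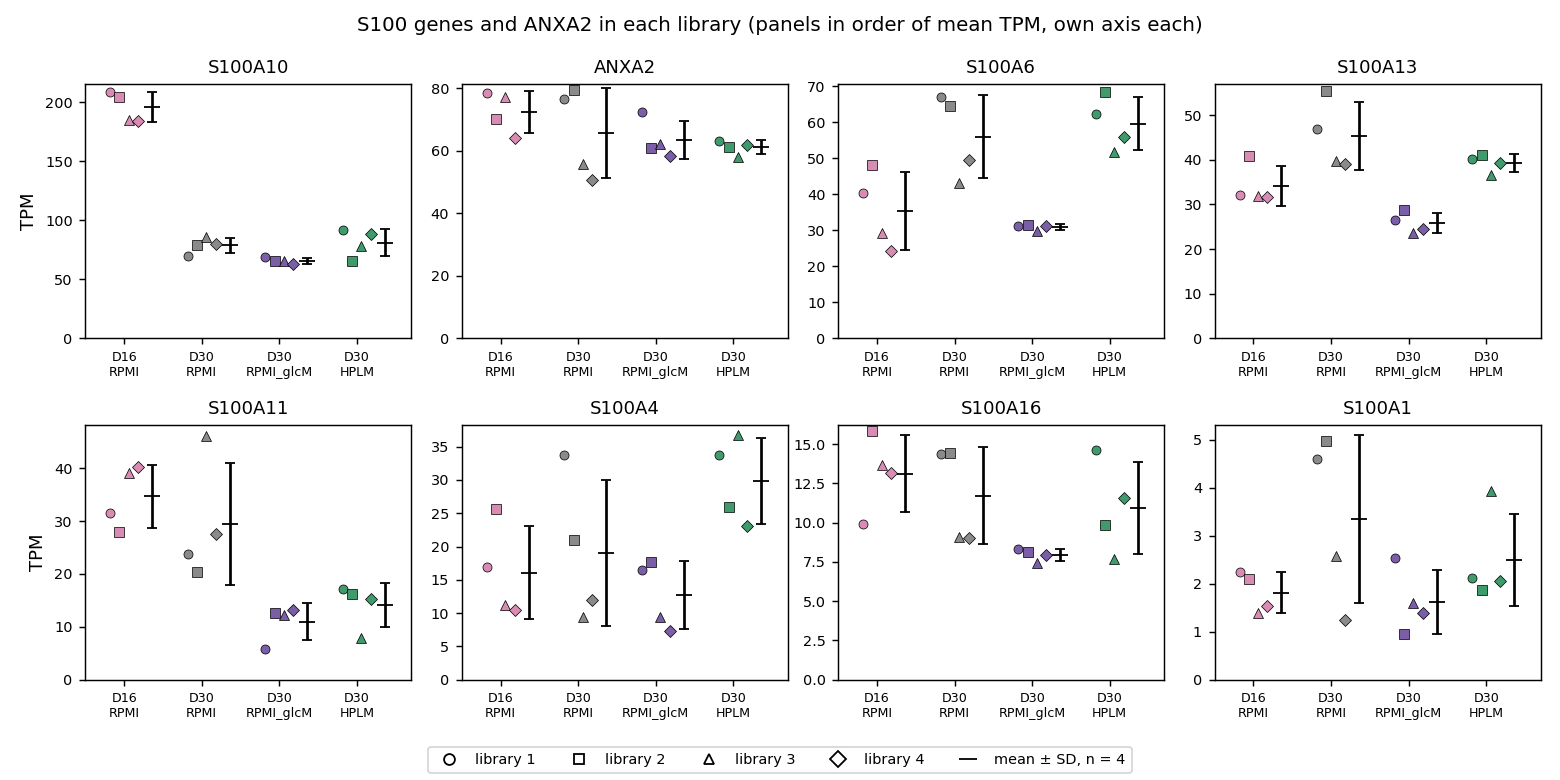
TPM of each of the 8 genes (panels, y axis from 0) in each of the 16 libraries, grouped along the x axis by day and medium. Symbols are libraries 1 to 4 and the black bars are group means ± SD. S100A10 drops from 184 to 209 TPM at Day 16 to 62.7 to 91.8 TPM at Day 30, while S100A6 and S100A13 are low in RPMI_glcM/B27 and higher in the other two Day 30 media.

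S100A6 (calcyclin), which binds the CACYBP and SUGT1 proteins, was higher at Day 30 than at Day 16 in RPMI/B27 and HPLM/B27 and stood near its Day 16 level in RPMI_glcM/B27. Its values were 40.3, 48.2, 29.2 and 24.1 TPM at Day 16 and 67.2, 64.5, 43.1 and 49.5 in RPMI/B27. They were 31.2, 31.5, 29.8 and 31.2 in RPMI_glcM/B27 and 62.4, 68.6, 51.6 and 56.0 in HPLM/B27. The RPMI_glcM/B27 libraries were nearly equal to each other (30.9 ± 0.777 TPM) and all lay below those of both other Day 30 media (56.0 ± 11.6 and 59.7 ± 7.39), while Day 16 (35.5 ± 10.9) overlapped with RPMI/B27. S100A6 rose against Day 16 in RPMI/B27 (log2 fold change 0.67, SE 0.19, limma adjusted p = 0.021) and in HPLM/B27 (0.77, SE 0.19, adjusted p = 0.00709), or by 0.95 and 1.06 above the median of all genes. In RPMI_glcM/B27 the difference from Day 16 was -0.14 (SE 0.19, adjusted p = 0.624). It was lower in RPMI_glcM/B27 than in RPMI/B27 (-0.81, SE 0.19, adjusted p = 0.0305). The difference of 0.92 (SE 0.19) between HPLM/B27 and RPMI_glcM/B27 had an adjusted p of 0.0686, which was 0.00161 to 0.119 over the 10 alternatives and passed in 7.

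The rise of S100A6 in HPLM/B27 passed in all alternatives and with any library left out. Its rise in RPMI/B27 was lost without Day 16 library 3 (limma adjusted p = 0.0681) or 4 (adjusted p = 0.0536). The lower level in RPMI_glcM/B27 than in RPMI/B27 was lost without RPMI/B27 library 1 (0.0637) or 2 (adjusted p = 0.066) and without any one of the RPMI_glcM/B27 libraries (adjusted p 0.0661 to 0.0832), as well as with only the 2 groups in the fit (0.0807), which also ended the rise in RPMI/B27 (0.114), and with all genes above 0 (0.0616). S100A6 in HPLM/B27 against RPMI_glcM/B27 passed without Day 16 library 2 (adjusted p = 0.0374). Its partners CACYBP and SUGT1 were lower in HPLM/B27 than at Day 16, at 18.9 against 29.0 TPM (log2 fold change -0.59, SE 0.11, adjusted p = 0.00129) and at 15.7 against 21.7 TPM (-0.44, SE 0.15, adjusted p = 0.0404). They passed in no comparison between media.

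S100A13, which leaves the cell together with the growth factor FGF1 and the vesicle protein SYT1, had a profile like that of S100A6. It was at 32.1, 40.7, 31.9 and 31.6 TPM at Day 16 and at 46.9, 55.4, 39.7 and 39.0 in RPMI/B27. It was at 26.4, 28.7, 23.7 and 24.5 TPM in RPMI_glcM/B27 and at 40.2, 41.0, 36.5 and 39.3 in HPLM/B27. The lowest 4 of all 16 libraries were those of RPMI_glcM/B27, and Day 16 library 2 stood apart from the rest of its group. The means were 34.1 ± 4.44 at Day 16 and 45.3 ± 7.66, 25.8 ± 2.26 and 39.3 ± 1.98 TPM at Day 30. S100A13 was lower in RPMI_glcM/B27 than in RPMI/B27 (log2 fold change -0.78, SE 0.13, limma adjusted p = 0.00393), with any library left out as well, though not with only the 2 groups in the fit (adjusted p = 0.08). It rose against Day 16 in RPMI/B27 (0.39, SE 0.13, adjusted p = 0.0373) and fell in RPMI_glcM/B27 (-0.38, SE 0.13, adjusted p = 0.0399). In HPLM/B27 the difference from Day 16 was 0.21 (SE 0.13, adjusted p = 0.234), which passed in 4 of the 10 alternatives, with 0.54 (adjusted p = 0.000343) after median-of-ratios rescaling, and from RPMI_glcM/B27 it was 0.59 (SE 0.13, adjusted p = 0.0884, or 0.00155 to 0.11 over the 10 alternatives, passing in 7).

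Both small S100A13 changes against Day 16 depended on single libraries. The rise in RPMI/B27 was lost without Day 16 library 1 (limma adjusted p = 0.0982), 3 (0.0984) or 4 (0.0745), RPMI/B27 library 1 (0.0513) or 2 (0.0697), or HPLM/B27 library 4 (0.05), and with only the 2 groups in the fit (0.177), while after median-of-ratios rescaling it was 0.72 (adjusted p = 4.23e-05). The fall in RPMI_glcM/B27 was lost without Day 16 library 1 (0.0639), 2 (0.131) or 3 (0.0612), RPMI_glcM/B27 library 1 (0.0629), 3 (0.112) or 4 (0.104), or any HPLM/B27 library (0.0502 to 0.0532), and it lay -0.16 from the median of all genes, with -0.13 after median-of-ratios rescaling (adjusted p = 0.308). The higher level in HPLM/B27 than in RPMI_glcM/B27 passed without RPMI/B27 library 2 (adjusted p = 0.0465). FGF1 rose against Day 16 in all 3 media, from 8.76 TPM to 13.2 in RPMI/B27 (0.52, SE 0.18, adjusted p = 0.0467), 15.6 in RPMI_glcM/B27 (0.77, SE 0.18, adjusted p = 0.00512) and 24.7 in HPLM/B27 (1.40, SE 0.18, adjusted p = 4.71e-05), and was higher in HPLM/B27 than in RPMI/B27 (0.88, SE 0.18, adjusted p = 0.0124). SYT1 fell against Day 16 in RPMI_glcM/B27 (-0.95, SE 0.19, adjusted p = 0.00223) and HPLM/B27 (-0.99, SE 0.19, adjusted p = 0.00163), from 11.2 to 5.26 and 5.10 TPM.

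S100A11, which binds ANXA1 and helps to repair membranes, was lower in RPMI_glcM/B27 and HPLM/B27 than at Day 16, and lower in RPMI_glcM/B27 than in RPMI/B27. It was at 31.6, 27.9, 39.0 and 40.3 TPM at Day 16 and at 23.7, 20.3, 46.2 and 27.7 in RPMI/B27. It was at 5.79, 12.7, 12.3 and 13.1 TPM in RPMI_glcM/B27 and at 17.1, 16.1, 7.92 and 15.2 in HPLM/B27. No library of either of the last 2 media reached the lowest library of Day 16 or of RPMI/B27, and library 3 of RPMI/B27 was the highest of all. The means were 34.7 ± 5.92, 29.5 ± 11.5, 10.96 ± 3.46 and 14.1 ± 4.19 TPM. S100A11 fell against Day 16 in RPMI_glcM/B27 (log2 fold change -1.62, SE 0.28, limma adjusted p = 0.000721) and in HPLM/B27 (-1.28, SE 0.28, adjusted p = 0.00407), and differed by -0.28 (SE 0.28, adjusted p = 0.483) in RPMI/B27. Against RPMI/B27 it was lower in RPMI_glcM/B27 (-1.34, SE 0.28, adjusted p = 0.0195), and the difference in HPLM/B27 was -0.997 (SE 0.28, adjusted p = 0.0774). HPLM/B27 and RPMI_glcM/B27 differed by 0.34 (SE 0.28, adjusted p = 0.931). The call in RPMI_glcM/B27 against RPMI/B27 was lost without RPMI/B27 library 3 (-1.11, adjusted p = 0.0572) or RPMI_glcM/B27 library 1 (-1.09, adjusted p = 0.0606), with only the 2 groups in the fit (0.118) and without both RPMI/B27 libraries of highest RNR1 (adjusted p = 0.0569). The difference of HPLM/B27 from RPMI/B27 passed without RPMI_glcM/B27 library 1 (adjusted p = 0.0495) and was -0.66 (adjusted p = 0.142) without the 2 libraries of highest RNR1. After median-of-ratios rescaling the fall in HPLM/B27 against Day 16 was -0.96 (adjusted p = 0.0738).

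ANXA1 is the annexin that S100A11 binds when calcium is present. Its means were 30.8 ± 6.97 TPM at Day 16, 24.0 ± 6.19 with RPMI/B27, 7.53 ± 1.81 with RPMI_glcM/B27 and 13.6 ± 3.46 with HPLM/B27. ANXA1 was lower in RPMI_glcM/B27 than in RPMI/B27 (log2 fold change -1.55, SE 0.22, limma adjusted p = 0.00163) and than at Day 16 (-1.90, SE 0.22, adjusted p = 2.48e-05), and lower in HPLM/B27 than at Day 16 (-1.13, SE 0.22, adjusted p = 0.00179). The other differences, 0.76 (SE 0.22, adjusted p = 0.324) for HPLM/B27 against RPMI_glcM/B27 and -0.79 (SE 0.22, adjusted p = 0.076) for HPLM/B27 against RPMI/B27, did not pass. ANXA1 was the annexin whose call in RPMI_glcM/B27 against RPMI/B27 passed, 1 of 8 tested, beside 0.837% of all genes lower there.

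S100 genes are also expressed by other cell types, and some of their markers moved with S100A11 or S100A10. The summed level of the 10 fibroblast genes was 240 to 437 TPM per library at Day 16, 151 to 300 with RPMI/B27, 118 to 163 with RPMI_glcM/B27 and 122 to 186 with HPLM/B27. The 8 hepatic endoderm genes summed to 429 to 763, 319 to 562, 91.7 to 209 and 68.0 to 205 TPM, and those of smooth muscle to 400 to 859, 245 to 951, 266 to 354 and 303 to 510 TPM, with MYH11 at 0 in all libraries. Of the 6 fibroblast genes tested, 3 were lower than at Day 16 with RPMI/B27, 5 with RPMI_glcM/B27 and 4 with HPLM/B27, and 1 (COL1A2) was lower with either of the latter than with RPMI/B27. Of all genes tested, 17.8%, 17.8% and 22.4% were lower than at Day 16. Against RPMI/B27, 0.837% were lower with RPMI_glcM/B27 and 0.893% with HPLM/B27. POSTN, a fibroblast gene that passed in no comparison, was at 32.1 TPM at Day 16 and at 45.5, 44.7 and 27.8 TPM at Day 30. Of the 7 hepatic endoderm genes tested, 5 were lower than in RPMI/B27 in each of RPMI_glcM/B27 and HPLM/B27, beside the same 0.837% and 0.893% of all genes. Against Day 16, 5 of the 7 were lower with RPMI/B27, 6 with RPMI_glcM/B27 and 6 with HPLM/B27, where 17.8%, 17.8% and 22.4% of all genes were lower. ALB was the 1 that was higher, in all 3 media, where 2.08%, 3.34% and 3% of all genes were higher. AFP went from 441 TPM at Day 16 to 138, 55.0 and 57.0 TPM, and ALB from 21.2 to 242, 78.1 and 49.9 TPM. Lower than at Day 16 in all 3 media, as S100A10 was, were also the endothelial gene KDR (47.0 against 19.5, 20.1 and 25.7 TPM), the epithelial genes EPCAM (11.7 against 5.10, 3.81 and 4.31 TPM) and CDH1, and the smooth muscle gene NOTCH3 (6.50 against 2.21, 1.89 and 1.88 TPM). ACTA2 and RGS5, also of the smooth muscle list, were lower in all 3 media too. CNN1 of that list passed in no comparison, with means of 165 TPM at Day 16 and 186, 136 and 162 TPM later. Of 5 smooth muscle genes tested, 3, 4 and 4 were lower than at Day 16, with the media in the same order. Of 5 epithelial genes, 3, 4 and 5 were, beside the same 17.8%, 17.8% and 22.4% of all genes. KDR was the only 1 of the 6 endothelial genes listed to reach a mean of 1 TPM. Below that level, PECAM1 had a higher mean than at Day 16 in all 3 media and TEK a lower one, while CDH5 and TIE1 went either way. None of the fibroblast, smooth muscle, epithelial, endothelial or hepatic endoderm genes passed between HPLM/B27 and RPMI_glcM/B27, where 0.0496% of all genes were higher and 0.0186% lower. An unadjusted p under 0.05 by limma was found for 2 of 6 fibroblast, 1 of 5 smooth muscle and 1 of 5 epithelial genes tested. No endothelial or hepatic endoderm gene had one, and 6.53% of all genes did. In bulk RNA, fewer cells of a type and less RNA per cell cannot be told apart, and the part of these cell types in the results for S100A11, S100A10 and the others was not tested.

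**Figure D3:**
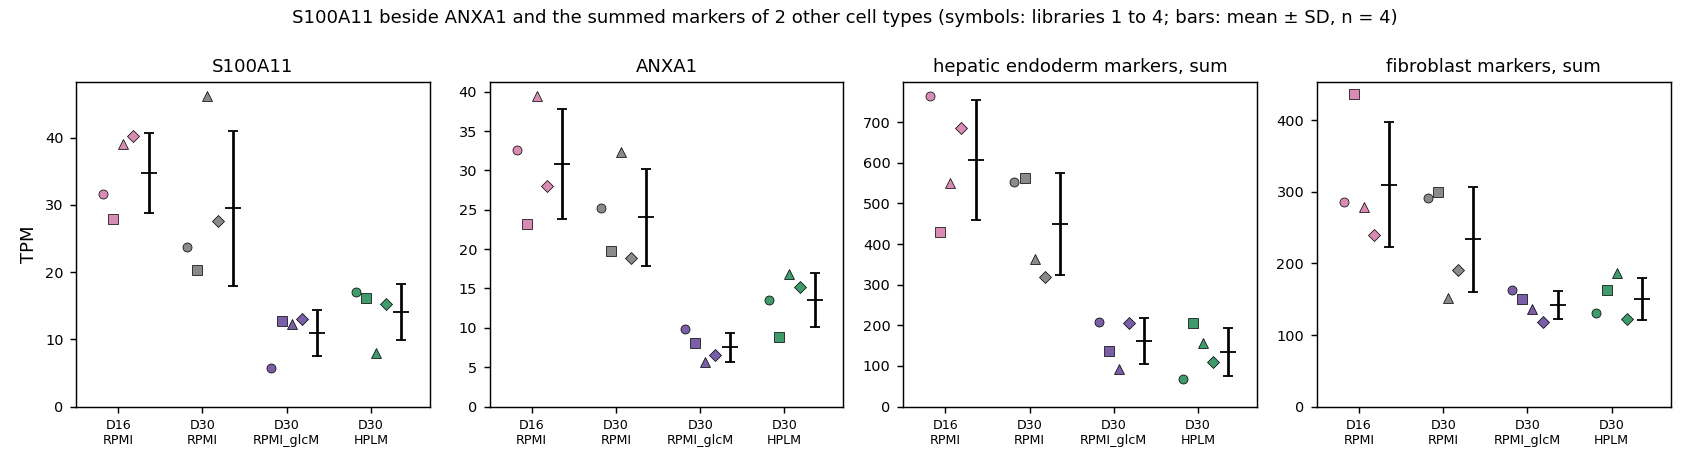
Level in TPM (y axis from 0, own axis in each panel) of S100A11, of ANXA1 and of the summed hepatic endoderm and fibroblast genes in the 16 libraries, grouped along the x axis by day and medium. Symbols are libraries 1 to 4 and black bars are means ± SD (n = 4). S100A11 is at 5.79 to 17.1 TPM in RPMI_glcM/B27 and HPLM/B27 and at 20.3 to 46.2 TPM in the other two groups, and the hepatic endoderm sum is at 68.0 to 209 and 319 to 763 TPM in the same groups.

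S100A4, which binds the non-muscle myosin MYH9 and is a marker often used for fibroblasts, passed in no comparison by limma, though its highest mean was in HPLM/B27. The study reported it as higher in HPLM/B27 than in RPMI_glcM/B27, by its own RNA-seq test and by qPCR over several cell lines. Its baseline in the qPCR differed between lines. In the libraries used here S100A4 was at 17.0, 25.7, 11.2 and 10.4 TPM at Day 16 and at 33.8, 21.0, 9.37 and 12.0 in RPMI/B27. It was at 16.5, 17.7, 9.48 and 7.26 TPM in RPMI_glcM/B27 and at 33.8, 25.9, 36.8 and 23.0 in HPLM/B27. In 3 groups libraries 1 and 2 were above libraries 3 and 4, and every HPLM/B27 library was above every RPMI_glcM/B27 library (29.9 ± 6.48 against 12.7 ± 5.13 TPM). The difference was 1.23 (SE 0.36, limma adjusted p = 0.341), with an adjusted p of 0.028 to 0.549 over the 10 alternatives, of which 2 passed. Against Day 16 (16.1 ± 7.03 TPM) it was 0.92 in HPLM/B27 (SE 0.36, adjusted p = 0.0724), which passed in 7 of the 10 alternatives, without Day 16 library 2 (adjusted p = 0.0388) and without RPMI/B27 library 1 (adjusted p = 0.0428). Against RPMI/B27 (19.0 ± 11.02 TPM) it was 0.76 (SE 0.36, adjusted p = 0.333), with 0.85 (adjusted p = 0.0251) by limma-voom on median-of-ratios library sizes and 0.14 (adjusted p = 0.817) without both RPMI/B27 libraries of highest RNR1, which also moved RPMI_glcM/B27 against RPMI/B27 from -0.47 to -1.09 (adjusted p = 0.0777). MYH9 did not pass in any comparison, with group means of 57.8 to 85.6 TPM and its lowest in HPLM/B27.

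S100A16, a member of less known function, was at 9.91, 15.8, 13.7 and 13.2 TPM at Day 16 and at 14.4, 14.4, 9.06 and 9.0 in RPMI/B27. It was at 8.31, 8.10, 7.45 and 7.92 TPM in RPMI_glcM/B27 and at 14.6, 9.83, 7.69 and 11.6 in HPLM/B27. As with S100A6, the RPMI_glcM/B27 libraries were nearly equal (7.95 ± 0.369 TPM) and low. S100A16 was lower there than at Day 16 (log2 fold change -0.64, SE 0.19, limma adjusted p = 0.0268), and the difference from RPMI/B27 was -0.47 (SE 0.19, adjusted p = 0.25), or -0.78 (adjusted p = 0.0284) without both RPMI/B27 libraries of highest RNR1. In that reduced fit the median of all genes was -0.21. The call against Day 16 was lost without Day 16 library 2 (0.0829) or 3 (0.0678) or RPMI_glcM/B27 library 2 (0.0508), 3 (0.0673) or 4 (0.0601), and in 3 of 10 alternatives (-0.40, adjusted p = 0.0823, after median-of-ratios rescaling).

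S100A1, the heart's main S100 protein, passed in no comparison. It was at 2.24, 2.10, 1.39 and 1.53 TPM at Day 16, at 4.59, 4.97, 2.58 and 1.23 in RPMI/B27, at 2.53, 0.960, 1.59 and 1.38 in RPMI_glcM/B27 and at 2.12, 1.86, 3.92 and 2.06 in HPLM/B27. Libraries 1 and 2 of RPMI/B27 were the highest, and the groups overlapped in every pair. The largest difference, -0.66 (SE 0.29, limma adjusted p = 0.282) for RPMI_glcM/B27 against RPMI/B27, did not pass. Without both RPMI/B27 libraries of highest RNR1 it was -1.18 (adjusted p = 0.0162), beside a median of -0.21 over all genes. Against Day 16 in RPMI/B27 it was 0.53 (SE 0.29, adjusted p = 0.187), which passed without RPMI/B27 library 4 (0.82, adjusted p = 0.0488) and without both of highest RNR1 (1.05, adjusted p = 0.021). Its partners were abundant: RYR2 was at 192 to 254 TPM and ATP2A2 at 341 to 477 TPM in group means. ATP2A2 was lower in RPMI/B27 than at Day 16 (-0.52, SE 0.16, adjusted p = 0.0291), and PLN, which inhibits the pump, was higher at Day 30 in all 3 media, at 2795, 3360 and 3851 against 1503 TPM.

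The 7 S100 genes together summed to 331 ± 27.6 TPM at Day 16. At Day 30 they summed to 244 ± 20.3 TPM with RPMI/B27, 156 ± 8.10 with RPMI_glcM/B27 and 238 ± 17.2 with HPLM/B27. The sum was 148 to 165 TPM in the RPMI_glcM/B27 libraries, below every library of the other groups (219 and above). S100A10 gave 59.2% of the sum at Day 16 and 32.6%, 42.2% and 34.1% at Day 30. The ratio of S100A6 to S100A10 went from 0.180 at Day 16 to 0.723, 0.471 and 0.753. The sum is given as a description, with no test, since the members were tested one by one.

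**Figure D4:**
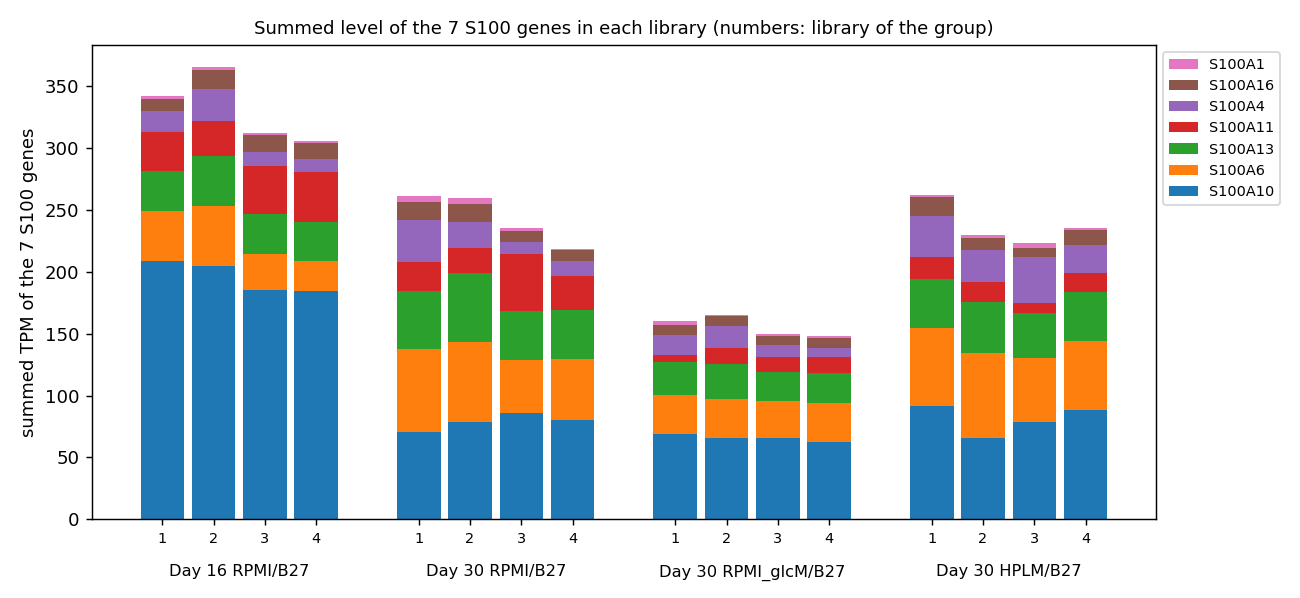
Summed TPM of the 7 S100 genes (y axis from 0) in each of the 16 libraries, stacked by gene, with the libraries grouped by day and medium on the x axis. The sum is 306 to 365 TPM at Day 16 and 148 to 165 TPM in RPMI_glcM/B27 at Day 30, and the S100A10 share is largest at Day 16.

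Of 13 other S100 genes in the table, S100P was the one that reached a mean of 1 TPM, at 2.84 TPM at Day 16, 1.17 with RPMI/B27, 1.73 with RPMI_glcM/B27 and 2.12 with HPLM/B27, and it passed in no comparison. Against Day 16 in RPMI/B27 it differed by -0.86 (limma adjusted p = 0.113). S100A7, S100A7A, S100A9 and S100A12 were listed at 0 in every library, and AGER, the RAGE receptor of extracellular S100 proteins, was also at 0. Of the annexins, 8 of 12 were tested. Besides ANXA1, ANXA6, which binds membranes of muscle, was lower than its Day 16 level of 174 TPM in all 3 media, at 129 (log2 fold change -0.44, SE 0.11, adjusted p = 0.0132), 132 (-0.39, SE 0.11, adjusted p = 0.0191) and 125 TPM (-0.47, SE 0.11, adjusted p = 0.00652). The remaining 6 (ANXA3, ANXA4, ANXA5, ANXA7, ANXA9 and ANXA11) passed in no comparison. ANXA3 (108 to 147 TPM) and ANXA5 (61.5 to 68.8 TPM) were within the range of levels of S100A10 and ANXA2.

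Of the 14 partners listed for the S100 proteins, 13 were tested. Between media at Day 30, 1 was higher (FGF1) and 1 lower (AHNAK) in HPLM/B27 than in RPMI/B27, and limma called 0 in HPLM/B27 against RPMI_glcM/B27 (4 at an unadjusted p under 0.05) and 0 in RPMI_glcM/B27 against RPMI/B27 (3 at an unadjusted p under 0.05), with 0 to 8, 0 to 2 and 0 to 6 calls in these comparisons over the alternatives. In the same order, 1.51%, 0.0496% and 1.36% of all genes were higher and 0.893%, 0.0186% and 0.837% lower. An unadjusted p under 0.05 was found for 6.53% of all genes in the second and for 2408 of 16122 in the third. Against Day 16, 2 were higher (FGF1 and PLN) and 2 lower (ATP2A2 and ATP5F1A, a subunit of ATP synthase) in RPMI/B27, and with only the 2 groups in the fit 0 of these 4 calls were made. There, 2.08% of all genes tested were higher and 17.8% lower. With RPMI_glcM/B27, 2 rose (FGF1 and PLN) and 2 fell (AHNAK and SYT1), where 3.34% of all genes were higher and 17.8% lower. With HPLM/B27, FGF1 and PLN rose and 4 fell, where 3% of all genes were higher and 22.4% lower. KCNK3 is left out here, since its mean reached 1 TPM only through these libraries. Counts of partners in comparisons with HPLM/B27 at an unadjusted p or over the alternatives may include it. The calls numbered 0 to 7, 4 to 6 and 6 to 9 over the alternatives in these 3 comparisons.

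Of the other EF-hand proteins listed, 20 of 22 were tested against Day 16. In RPMI/B27 0 rose and 10 fell, in RPMI_glcM/B27 1 rose and 8 fell and in HPLM/B27 1 rose and 9 fell, beside the 17.8%, 17.8% and 22.4% of all genes that were lower. The calls in either direction numbered 1 to 11, 6 to 15 and 5 to 13 over the alternatives, with the 1 in RPMI/B27 from a fit of only the 2 groups and 3 there after median-of-ratios rescaling, without both libraries of highest RNR1, or without Day 16 library 1 or 3. Among them, SRI (sorcin), which binds RYR2, went from 36.3 TPM at Day 16 to 22.3, 18.4 and 18.2, and CHP1, which binds sodium-proton exchangers, from 70.3 to 33.2, 32.0 and 33.2 TPM. RCN1, a protein of the endoplasmic reticulum, was lower in HPLM/B27 than at Day 16 (log2 fold change -1.03, SE 0.11, limma adjusted p = 1.51e-05) and than in RPMI/B27 (-0.50, SE 0.11, adjusted p = 0.0259). The rise was that of VSNL1, a neuronal calcium sensor, from 6.65 to 11.3 TPM in both RPMI_glcM/B27 and HPLM/B27. Between HPLM/B27 and RPMI_glcM/B27, limma called 0 of the 20, where 0.0496% of all genes were higher and 0.0186% lower. An unadjusted p under 0.05 was found for 1, and for 6.53% of all genes. Over the alternatives, limma-voom included, 0 to 1 were called.

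Over the 16 libraries the profile of each gene was compared with the 6833 genes of at least 10 TPM, by the root mean square (RMS) difference of log2(TPM + 1) after each gene's mean was taken off, a small value being alike. Nearest to S100A10, whose own RMS was 0.618, were ARMH4 (0.177), MAP1A (0.225) and MSX2 (0.229), and to ANXA2 (own RMS 0.184) KIF13A (0.0699), CUL5 (0.0828) and VAPB (0.0839). S100A6 was nearest to PROS1 (0.255), S100A13 (0.265) and HCFC1R1 (0.307), and S100A13 to C12orf75 (0.196), CCNDBP1 (0.197) and APOBEC2 (0.217). S100A11, the most variable with an RMS of 0.775, had no gene nearer than CPE (0.406), AKAP12 (0.411) and GDF6 (0.442). S100A4 was nearest to PROS1 (0.411) and RETREG1 (0.423), S100A16 to RAP2A (0.205), DECR1 (0.209) and PELO (0.212), and S100A1 to FHL1 (0.272), WEE1 (0.289) and TMEM56 (0.289). S100A13 was the second nearest of 6832 genes to S100A6, whose own RMS over the libraries was 0.470, although S100A6 was the 51st nearest to S100A13, since S100A13 varied less (0.320). The 16 points share groups and libraries, so these are descriptions.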

How the data were processed

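RNA was measured in 16 libraries of WTC11 cardiomyocytes, 4 in each group. Libraries were made from total RNA with the stranded SMARTer chemistry of Takara. Per the submitters' notes, alignment was to hg38 (STAR 2.5.3a, with decoys) and counting by featureCounts 2.0.3, and the authors deposited TPM values for 43388 genes. Which annotation, lengths, TPM software and strand setting were used is not given in the sources used here. For their own tests the authors ran DESeq2 on the counts.

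The 16122 genes whose mean was 1 TPM or more were tested by limma 3.58.1 in R 4.3.3 on log2(TPM + 1), with a trended prior variance. One fit over the 4 groups gave 6 comparisons, each adjusted by Benjamini-Hochberg. TPM steps gave whole reads for 31047 genes (tolerance 0.02 reads), used for depth and for limma-voom. The p-values measure the spread between wells of 1 differentiation. Alternatives were median-of-ratios rescaling, TPM after removal of mitochondrial and ribosomal RNA genes, a pseudocount of 0.1, a floor of 5 TPM or none, a fit of just the 2 groups compared, a replicate block, limma-voom (at least 10 reads) and each library left out. After seeing the data, limma-voom with median-of-ratios library sizes and leaving out the 2 RPMI/B27 libraries of highest RNR1 were added. S100A1 was not tested at 5 TPM or in limma-voom. The scripts were tested on simulated data.

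The genes named are the 8 members, the listed S100 genes and annexins of at least 1 TPM, listed genes past the threshold, and for each member the 3 genes nearest by profile. One gene that this rule names is not reported here. Of the EF-hand genes past the threshold examples are given. PLAT, MYH9, RYR2 and AGER, listed as partners, and genes named as examples of marker lists were added after their values were seen. The members and lists were chosen with earlier results of these data known. Python 3.11.15, numpy 2.4.6, pandas 2.3.3 and matplotlib 3.10.9 were used. Promoters came from RefSeq (GRCh38.p14) by symbol, 11 windows for the 8 members.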

Additional observations from a re-analysis of the deposited data

Results flagged for a closer look

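In each gene and group of 4 libraries, the gap of the highest or lowest library to its neighbour was compared with the range of the group (Dixon's test at 95%), which chance passes in about 1 in 20 groups. Of 32 tested, 3 passed. S100A1 in HPLM/B27 was at 3.92 TPM in library 3, above 1.86 to 2.12 TPM in the others. S100A11 in RPMI_glcM/B27 was at 5.79 TPM in library 1, below 12.3 to 13.1 TPM in the others. S100A13 at Day 16 was at 40.7 TPM in library 2, above 31.6 to 32.1 TPM in the others.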

How the results depend on the processing

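The number of the 8 genes called, in the order HPLM/B27 against RPMI_glcM/B27, HPLM/B27 against RPMI/B27, RPMI_glcM/B27 against RPMI/B27, then RPMI/B27, RPMI_glcM/B27 and HPLM/B27 against Day 16, was 0, 0, 3, 3, 4 and 3. It was 3, 0, 4, 4, 2 and 4 after median-of-ratios rescaling, 2, 1, 3, 3, 2 and 5 with limma-voom on recovered reads, and 3, 1, 3, 3, 2 and 4 with limma-voom on median-of-ratios library sizes. With both RPMI/B27 libraries of highest RNR1 left out it was 2, 2, 4, 4, 4 and 5. With genes of at least 5 TPM, HPLM/B27 against RPMI/B27 gave 1, where 354 of 9753 genes were called. Without mitochondrial and ribosomal RNA genes, HPLM/B27 gave 2 against RPMI_glcM/B27 and 5 against Day 16. With only the 2 groups compared, HPLM/B27 against RPMI_glcM/B27 gave 2, RPMI_glcM/B27 against RPMI/B27 0, RPMI/B27 against Day 16 1 and HPLM/B27 against Day 16 5. Leaving out 1 library gave 0 to 1, 0 to 1, 1 to 3, 1 to 4, 2 to 4 and 3 to 4. The cause of these shifts was not tested. Over all genes, the call counts of 11, 388, 354, 3203, 3400 and 4088 became 262, 2083, 1945, 2826, 4438 and 4086 after median-of-ratios rescaling, and the median of all genes then lay between -0.0139 and 0.00552. Of 16122 genes, 121, 3367, 1669, 1558, 5498 and 6581 were called without both libraries of highest RNR1. The median log2 fold changes of all genes were then -0.0639, -0.275, -0.212, -0.023, -0.217 and -0.286. With only the 2 groups compared the call counts were 33, 81, 45, 998, 4466 and 5834. Without mitochondrial and ribosomal RNA genes they were 83, 1124, 869, 4016, 4410 and 3943 of 16094. With limma-voom they were 138, 1564, 1220, 3678, 3950 and 4811 of 15423. On median-of-ratios library sizes they were 268, 2484, 1993, 3354, 4569 and 4552.

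A replicate block gave 2, 0, 3, 3, 4 and 4 calls among the 8, and 48, 732, 721, 4734, 4487 and 5520 over all genes. Of 24 same-numbered pairs of groups, 10 had a correlation above 0.1 (range -0.167 to 0.335). A library correlated best with its own number in 17 of 48 cases. Whether the numbers pair the libraries was not tested.

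Of 1230 fold changes under alternatives, 39 reversed sign, none of them past the threshold in either fit. Under median-of-ratios rescaling the log2 fold change was 0.0272 for ANXA2 in HPLM/B27 against RPMI_glcM/B27. Against Day 16 it was 0.0474, 0.14 and 0.171 for S100A11, S100A16 and ANXA2 in RPMI/B27, 0.0373, 0.111 and 0.07 for S100A1, S100A6 and ANXA2 in RPMI_glcM/B27, and 0.0538 and 0.0972 for S100A16 and ANXA2 in HPLM/B27. With limma-voom on median-of-ratios library sizes the same values, S100A1 apart, were 0.0249, then 0.0451, 0.145 and 0.177, then 0.106 and 0.0798, then 0.035 and 0.105. Without mitochondrial and ribosomal RNA genes, ANXA2 in HPLM/B27 against RPMI_glcM/B27 was 0.0563, and with limma-voom S100A10 in HPLM/B27 against RPMI/B27 was -0.0043. With both RPMI/B27 libraries of highest RNR1 left out, S100A6 in HPLM/B27 against RPMI/B27 was -0.147, and S100A16 and ANXA2 in RPMI/B27 against Day 16 were 0.14 and 0.109. With single libraries left out, the range held both signs for ANXA2 in the comparisons between media (-0.0855 to 0.016 for HPLM/B27 against RPMI_glcM/B27, -0.188 to 0.0235 for HPLM/B27 against RPMI/B27 and -0.14 to 0.0711 for RPMI_glcM/B27 against RPMI/B27). It did so in HPLM/B27 against RPMI/B27 for S100A6 (-0.0125 to 0.197), S100A10 (-0.0268 to 0.13) and S100A16 (-0.231 to 0.0513), and against Day 16 for S100A4 in RPMI/B27 (-0.163 to 0.419) and for S100A1 (-0.282 to 0.00139) and S100A6 (-0.308 to 0.0158) in RPMI_glcM/B27.

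S100A1 rested on 2 to 16 reads per library, S100A11 on 13 to 187, S100A4 on 15 to 107 and S100A16 on 40 to 132.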
